A study of Mus musculus with 13 samples.

Results

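The comparison sets mice that carry the P195A mutation of Adar opposite a null allele (P195A/-) against wild-type mice, in RNA of whole brain. It holds 6 of the 13 libraries of the series, 3 P195A/- and 3 wild type, chosen by the genotype label of each sample, and both gene expression and A-to-G editing were read from them. All animals were of the C57BL/6 strain and each library came from 1 mouse. Brains had been frozen whole, and RNA was extracted and sequenced by the submitters. Wild-type mice were 2 females of 48 days and a male of 74 days. Their weaning weights were 9.0, 10.5 and 10.3 g, at weaning ages of 19, 19 and 24 days. P195A/- mice were 2 females and a male, all of 42 days. These had weaning weights of 7.9, 8.2 and 8.4 g, each with a weaning age of 20 days. Their genotype labels disagree, since the long form has P195A on either side of its slash plus AdarKO/+ and the short form is P195A/-; the short one, which the sample description shares, was used. Within these 6 mice age cannot be told apart from genotype. For a contrast of the null allele with a second P195A allele, values of the 4 P195A/P195A mice (42 or 48 days, 3 females and a male) are given beside some results. Whether any of the mice were litter mates is not stated, so p-values cover the spread between these animals.

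Adar encodes ADAR1, an enzyme that turns adenosines of double-stranded RNA into inosine, which is read as G by the ribosome and by the sequencer. The long form of the enzyme is induced by interferon and carries a domain that binds RNA in the left-handed Z shape, and P195A lies in that domain. Unedited double-stranded RNA is sensed by MDA5 (Ifih1) and by PKR (Eif2ak2), which lead to interferon-stimulated genes and to phosphorylation of eIF2 alpha, and ZBP1 links Z-form RNA to necroptosis. In neurons a second enzyme, ADAR2 (Adarb1), recodes codons of glutamate receptor subunits and ion channels.

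The 6 libraries held 15592037 to 22399172 estimated gene counts each, and 19962 genes passed the filter on low counts. On the first principal component of the 6 libraries (26.4% of the variance) the wild-type libraries lay at -13.5, -28.3 and -29.1 and P195A/- at 29.4, 42.3 and -0.9. The third P195A/- library, from the male, lay apart on the second component (22.2%) at 53.5, where the others lay between -20.7 and 1.3, and mitochondrial genes took 1.57% of its counts against 0.46 to 0.79% in each of the other 12 libraries. Xist and Ddx3y matched the labelled sex in all 6.

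Adar RNA itself differed little. It had 186.7, 164.8 and 188.8 CPM (counts scaled to the size of each library) in wild type and 196.3, 203.8 and 203.7 in P195A/-. Each P195A/- value lay above each wild-type value, but the difference of 0.16 on the log2 scale (SE 0.0815) did not pass (edgeR quasi-likelihood test, adjusted p = 0.506). Counts per gene hold neither the mutated base nor the allele a read came from, so the genotype was not checked from them. In P195A/P195A brains the same gene had 345.6, 282.4, 340.3 and 322.5 CPM, and P195A/- was lower than these by a log2 value of -0.68 (SE 0.0772; edgeR adjusted p = 7.73e-04). Adarb1 had 325.4, 285.7 and 305.4 CPM in wild type and 308.8, 296.6 and 309.4 in P195A/-, a log2 difference of -0.003 (SE 0.0897, adjusted p = 0.995). Adarb2, a relative with no known editing activity, had 47.6, 42.0 and 42.2 against 54.8, 52.1 and 41.6 CPM (0.17, edgeR adjusted p = 0.7). The values of both overlapped between the groups.

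At a Benjamini-Hochberg adjusted p under 0.05 by edgeR, 6 genes rose (0.0301% of those tested) and 1 fell (0.00501%). They form 3 groups, namely 3 neighbours of Adar on chromosome 3, 3 near-identical copies of genes that also lie on chromosome 3, and Serpini1, again on chromosome 3. At an unadjusted p under 0.05, 915 genes were higher (4.58%) and 1197 lower (6.0%), or 10.6% in either direction. Log2 fold changes were above 0 in 53.1% of genes and below 0 in 46.9%, with a median of 0.02. All 3 P195A/- libraries lay above all wild-type libraries in 9.59% of genes and below them in 10.5%. DESeq2, which gave an adjusted p to 4094 genes, passed 32 higher (0.782%) and 168 lower (4.1%), 4.89% in all. Of these 185 had a log2 fold change within 0.5 of 0, and the medians were 0.39 and -0.31. By both tools 4 genes passed, while the 3 copies were given no adjusted p by DESeq2 and so could not pass there.

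**Figure D1:**
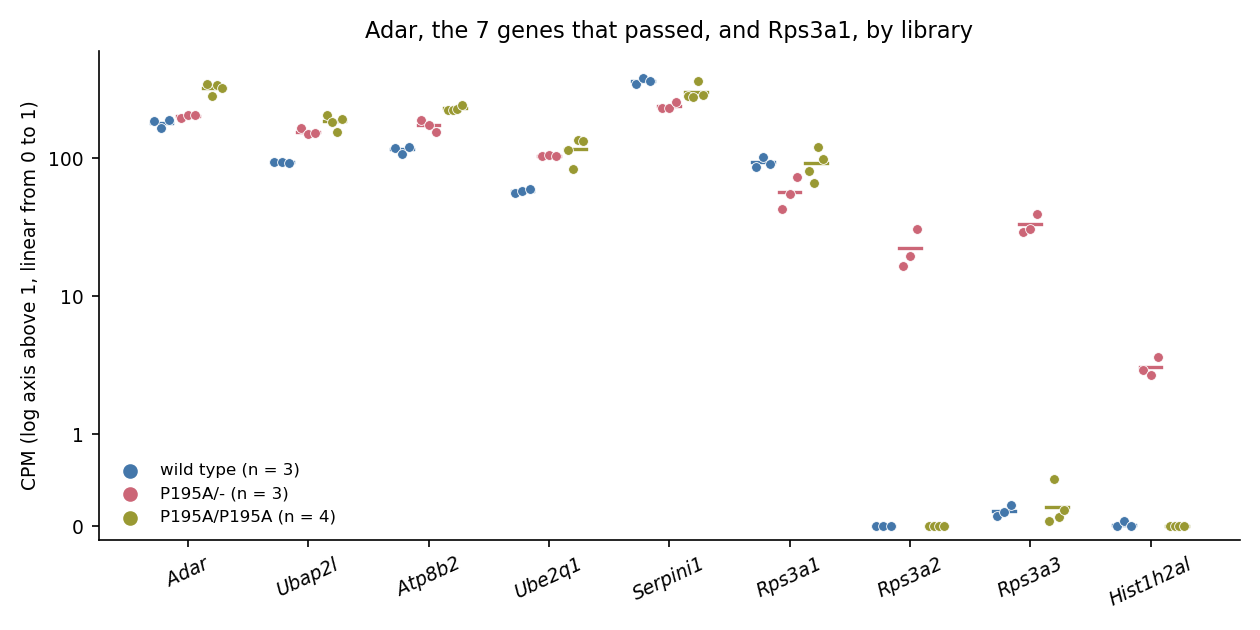
CPM of Adar, the 7 genes that passed and Rps3a1 in each library of wild type, P195A/- and P195A/P195A, with bars at the group means; the axis is logarithmic above 1 CPM and linear below. The 3 P195A/- values of Rps3a2, Rps3a3 and Hist1h2al lie far above the 3 wild-type values, while the points of Adar in P195A/- lie close to wild type and below P195A/P195A.

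Of 10 genes next to Adar, 3 rose in P195A/-. Ubap2l, which encodes a ubiquitin-associated protein of stress granules, had 93.9, 94.2 and 92.2 CPM in wild type and 164.9, 149.5 and 152.9 in P195A/-, and rose by 0.74 on the log2 scale (SE 0.0974; edgeR adjusted p = 0.00747). Ube2q1, a gene of a ubiquitin-conjugating enzyme, had 55.7, 58.2 and 60.2 against 103.7, 105.6 and 104.1 CPM, a rise of 0.85 (SE 0.132; edgeR adjusted p = 0.0269). Atp8b2, which encodes a phospholipid flippase, had 117.9, 107.7 and 121.4 against 188.6, 174.9 and 154.7 CPM, a rise of 0.58 (SE 0.0811; edgeR adjusted p = 0.00958). None of these groups overlapped. The 3 genes lie at 89773616 to 89784000 (Ube2q1), 89939481 to 89963508 (Atp8b2) and 90000140 to 90052628 (Ubap2l) on chromosome 3 of GRCm38, just after Adar at 89715022 to 89753446. None of the 3 passed when any 1 of the 3 wild-type libraries was left out (edgeR adjusted p of 0.0787 to 0.22), Ube2q1 also not without any 1 P195A/- library (0.0839 to 0.117) and Atp8b2 not without the first (0.0764) or second (0.0734), while every fold change stayed above 0.

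The whole stretch of 386 kb from Adar to the end of Tpm3 (chromosome 3, 89715022 to 90100902) was chosen after its values were seen. It holds 10 genes of at least 1 CPM besides Adar, all 10 with a log2 fold change above 0 and a median of 0.56 (Chrnb2 alone turned below 0, to -0.03, without the third P195A/- library). Of these, 9 had an unadjusted p under 0.05 and P195A/- values that were all above wild type, and 3 passed. Tpm3, a tropomyosin gene, had 52.1, 61.5 and 57.5 CPM in wild type and 90.8, 100.6 and 94.8 in P195A/- (0.74, SE 0.141, edgeR adjusted p = 0.095, DESeq2 adjusted p = 4.83e-04). Il6ra, the interleukin 6 receptor gene, had a log2 fold change of 0.67, She 0.54, Hax1 0.45, 4632404H12Rik 0.31 and 4933434E20Rik 0.31. The exception was Chrnb2, a nicotinic acetylcholine receptor subunit gene that overlaps the end of Adar on the opposite strand, with 87.7, 84.2 and 86.9 against 88.3, 79.7 and 94.4 CPM (0.02, SE 0.128; edgeR adjusted p = 0.97). Ubap2l and 4933434E20Rik also overlap on opposite strands, and no source used here says whether the counting used strand.

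Away from that stretch the values, taken as a set, resembled those of other genes. Among 93 genes within 3 Mb on either side, the median log2 fold change was 0.06 and 9 (9.68%) had an unadjusted p under 0.05. Over all 1121 tested genes of chromosome 3 the share was 10.8%. Rps27 and S100a2, the 2 flanking genes with the highest values, had 1.57 and 1.47 and did not pass (edgeR adjusted p = 0.27 and 0.307). Fcrls had the lowest value, -0.99, and did not pass (edgeR adjusted p = 0.192). Against P195A/P195A, a comparison that shares the P195A/- libraries, 0 of the 10 neighbours had a log2 fold change above 0, where 50.8% of all tested genes did. The values were -0.16 for Ube2q1, -0.24 for Ubap2l, -0.41 for Atp8b2 and -0.69 for Chrnb2, and only Adar passed (edgeR adjusted p = 0.0782 for Atp8b2 and 0.0555 for Chrnb2). Genes passing in that comparison numbered 8 (0.0401%).

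**Figure D2:**
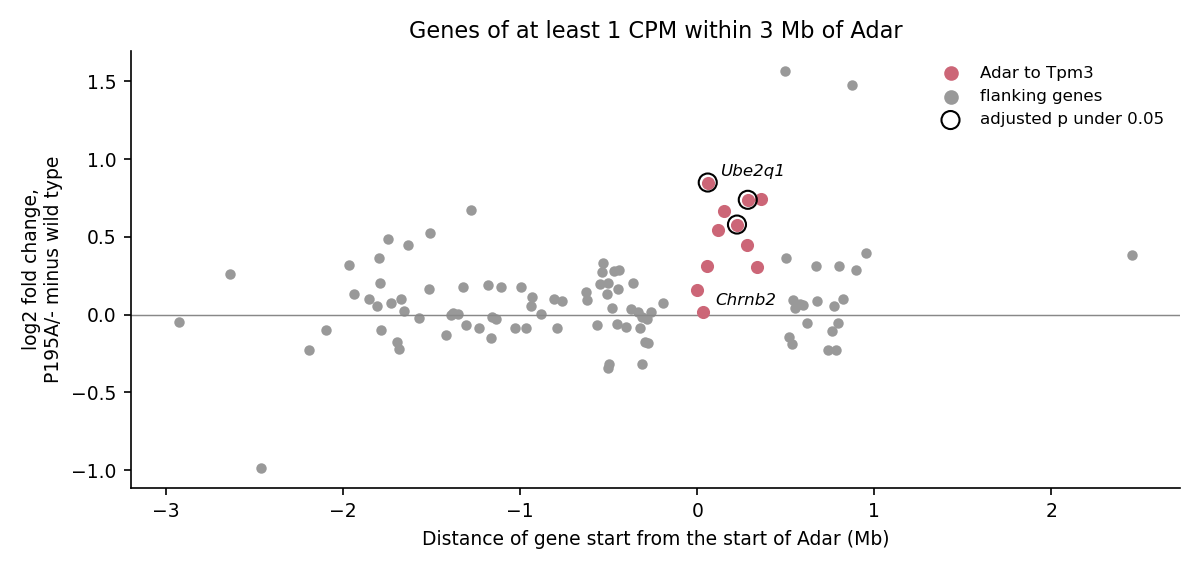
Log2 fold change of P195A/- against wild type for genes of at least 1 CPM, by distance of the gene start from the start of Adar in Mb; points from Adar to Tpm3 are red, flanking genes grey, and circles mark an adjusted p under 0.05. The red points lie between 0.02 (Chrnb2) and 0.85 (Ube2q1), while the median of the 93 flanking genes is 0.06.

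Near-identical copies of 2 genes had counts in all P195A/- brains and almost none in wild type. Rps3a2 and Rps3a3 are copies of Rps3a1, which encodes a protein of the small ribosomal subunit, and Hist1h2al is a near copy of Hist2h2aa2, a gene of a core histone, and equally of Hist2h2aa1 and Gm20634, of which Hist2h2aa2 was taken for comparison. Rps3a2 (chromosome 14, 88123017 to 88123808) had 0 CPM in each wild-type library and 16.4, 19.7 and 30.5 CPM in P195A/-. That is 0 against 1135 counts, at least 442-fold higher over a floor of 3 counts for the group (edgeR adjusted p = 2.33e-05). Rps3a3 (chromosome 13, 108670603 to 108671397) had 0.112, 0.158 and 0.226 against 29.1, 30.9 and 39.5 CPM. The 10 and 1684 counts behind these values give a ratio of 197 (95% exact counting interval 107 to 411; edgeR adjusted p = 1.53e-07). Hist1h2al (chromosome 13, 51202727 to 51203065) had 0, 0.0526 and 0 against 2.93, 2.69 and 3.61 CPM. Its 1 and 156 counts give a ratio of 182 (32.2 to 7240; edgeR adjusted p = 0.00873). Floors and intervals cover counting error only. Rps3a2 and Rps3a3 passed without any 1 of the 6 libraries, whereas Hist1h2al passed only without the first P195A/- library (edgeR adjusted p = 0.0478) and otherwise had 0.0511 to 0.118.

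The 4 P195A/P195A libraries were at 0 for Rps3a2 and Hist1h2al and between 0.0599 and 0.511 CPM for Rps3a3, so in these groups the copies were counted at more than 1 CPM only in P195A/-. A further copy had counts in wild type as well. Gm3608, a pseudogene on chromosome 1, was taken as a copy of Capza1 (an actin capping protein gene) without an alignment here. It had 30, 30.7 and 28.4 CPM in wild type and 26.2, 28.3 and 25.5 in P195A/-. The ratio was 0.899 (counting interval 0.837 to 0.966), and between animals the log2 difference was -0.155 (SE 0.359, edgeR adjusted p = 0.906). In P195A/P195A the copy had 0, 0.365, 0.589 and 0.295 CPM. The compared parents lie on chromosome 3, Rps3a1 at -3.58 Mb from Adar, Hist2h2aa2 at 6.52 Mb and Capza1 at 15.11 Mb.

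Reads of such copies can be told from those of the parent only where the letters differ, so each value is uncertain. In the GENCODE M21 transcripts Rps3a2 and Rps3a1 differed at 4 of 792 aligned bases (99.495% identity), Rps3a3 and Rps3a1 at 9 of 795 (98.868%), and Hist1h2al and each of its 3 matches at 2 of 339 (99.41%). Windows of 30 bases are shown, 5′ to 3′ on the transcript, to let the copies be compared with their parents; capitals mark the bases that differ.
Rps3a2: aagtTaaaatgctgaagaaacccaagtCtg
Rps3a1 at the same place: aagtAaaaatgctgaagaaacccaagtTtg
Rps3a3: tgaagtgagccttgcCgatctacagaatga
Rps3a1 at the same place: tgaagtgagccttgcTgatctacagaatga
Hist1h2al: cgcggagcgtgtgggCgccggcgcgccggt
Hist2h2aa2 at the same place: cgcggagcgtgtgggTgccggcgcgccggt

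The parent of the ribosomal copies had lower values where the copies had counts. Rps3a1 had 86.4, 101.6 and 91.4 CPM in wild type and 42.8, 55.2 and 73.5 in P195A/-, with no overlap (-0.70, SE 0.207; edgeR adjusted p = 0.272, DESeq2 adjusted p = 0.0208). The sum of Rps3a1, Rps3a2 and Rps3a3 was 86.5, 101.7 and 91.6 CPM in wild type and 88.3, 105.7 and 143.4 in P195A/-, so in the first and second P195A/- libraries it lay within or just above the wild-type range and in the third above it. Hist2h2aa2 overlapped between the groups, at 20.6, 15.04 and 21.6 against 18.1, 13.4 and 20.5 CPM.

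Serpini1 was the gene that fell. It encodes neuroserpin, a secreted inhibitor of tissue plasminogen activator made by neurons, and lies on chromosome 3 at 75557547 to 75643495. Wild-type brains had 344.0, 379.9 and 363.9 CPM and P195A/- brains 230.7, 231.1 and 253.2, and the groups were far from overlapping. It fell by 0.61 on the log2 scale (SE 0.0967; edgeR adjusted p = 0.0326, DESeq2 adjusted p = 3.46e-05). Its difference from P195A/P195A was -0.35 and did not pass (edgeR adjusted p = 0.366). Serpini1 did not pass without any 1 of the 6 libraries (edgeR adjusted p of 0.0787 to 0.256) nor with sex as a covariate (0.0554), though it stayed below wild type. With age as a covariate in the fit of all 13 libraries, Rps3a3 alone of the 7 genes passed (edgeR adjusted p = 2.96e-04), and the other 6 had 0.233 to 1. In RNA of whole brain, fewer cells of a type and less RNA per cell cannot be told apart, which holds for each result below as well.

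Beyond the genes that passed, those with the smallest p are named by rule and did not pass by edgeR. On the higher side stood Csmd3, a gene of a large synaptic membrane protein, with 129.8, 126.3 and 136.4 CPM in wild type and 195.8, 194.4 and 181.2 in P195A/- (0.54, edgeR adjusted p = 0.0837). Zfp318 followed at 0.67, Leng8 at 0.58, Gm4349 at 1.99, Pcdh9 (a protocadherin) at 0.32, Sirt2 (a deacetylase abundant in oligodendrocytes) at 0.68, Pxn at 0.62, Taf4 at 0.82 and Plekhg5 at 0.58. On the lower side stood Cds2, an enzyme gene of phosphatidylinositol synthesis, with 1044, 1126 and 1164 against 833.2, 917.3 and 839.8 CPM (-0.36, edgeR adjusted p = 0.0837). Ccni, a cyclin gene, had -0.59, Ankrd45 -0.55, Epdr1 -0.48, Stxbp6 -0.48, Rbm8a -0.56, Net1 -0.63, Tmem267 -1.83 and Amd1 -0.38. In all of these genes the groups did not overlap, which the choice by p makes likely. Csmd3, Zfp318, Leng8, Pcdh9, Cds2, Ccni, Epdr1, Stxbp6 and Amd1 passed by DESeq2 (DESeq2 adjusted p of 2.91e-04 to 0.00423). The other genes of this paragraph were given no adjusted p by DESeq2.

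Interferon-stimulated genes, the antiviral genes that interferon switches on, were the list of most interest for a defect of ADAR1. Of 70 listed genes 62 were tested, 49 had a log2 fold change above 0 and 13 below, and the median was 0.28 against 0.02 over all genes. None passed by edgeR. An unadjusted p under 0.05 was reached by 9, all higher, against 4.58% of all genes, and the P195A/- values lay wholly above wild type in 13 and wholly below in 2, against 9.59 and 10.5% of all genes. By library, the median deviation of the list from the wild-type mean was 0.001, -0.09 and 0.05 in wild type and 0.17, 0.43 and 0.19 in P195A/-, on the scale of log2 of CPM plus 0.5. The second P195A/- library was thus the highest, and without it the median was 0.15, with 44 genes above 0 and 7 higher and 1 lower at an unadjusted p under 0.05. Levels were low throughout. Against P195A/P195A, with the same P195A/- libraries, the median was 0.41, 52 genes were above 0 and 17 had an unadjusted p under 0.05, all higher (3.19% of all genes were).

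Ifit1, which encodes a binder of foreign RNA ends, had 2.14, 2.00 and 3.48 CPM in wild type and 4.61, 6.71 and 5.50 in P195A/- (1.14, SE 0.293; edgeR adjusted p = 0.221). Ifi44 had 1.52, 1.05 and 1.17 against 2.80, 5.86 and 2.11 CPM (1.52, edgeR adjusted p = 0.25), with the second P195A/- library well above the rest. Ifi27l2a was at a low level, with 0.169, 0.105 and 0.271 against 0.934, 1.10 and 0.666 CPM (2.24, adjusted p = 0.233). Irf7, the transcription factor that amplifies the interferon response, had 1.40, 0.999 and 1.08 against 1.99, 2.93 and 3.00 CPM (1.18, edgeR adjusted p = 0.314). In these 4 genes each P195A/- value was above each wild-type value, and none passed.

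The interferon-inducible GTPases, which attack the membranes around intracellular pathogens, numbered 17 tested of 18 listed. Of these 16 were above 0 and the median was 0.40, which was 0.24 without the second wild-type library and 0.27 without the second P195A/- library. None passed by edgeR, and 3 were higher and 1 lower at an unadjusted p under 0.05, where 4.58 and 6.0% of all genes were. Gvin1 had 10.1, 6.05 and 6.87 CPM against 11.4, 15.2 and 13.2 (0.79, edgeR adjusted p = 0.281). Gbp3 had 3.03, 3.37 and 2.03 against 3.24, 5.43 and 6.33 CPM (0.84), where 1 wild-type library exceeded the lowest P195A/- library. Ifi47 had 0.393, 0.578 and 0.949 against 1.49, 1.40 and 1.44 CPM (1.15). Gbp11 went the other way, at -1.47, with all libraries under 1.5 CPM. The list's summed level was 53.9 to 64.0 CPM in wild type and 71.7, 92.2 and 70.7 in P195A/-.

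Promoters of these genes were searched for the letters GAAA, any pair of bases (NN) and GAAA again, on both strands, the core of the element bound by interferon-regulated factors, in 300 bases from 250 before to 50 after the gene start (RefSeq, GRCm38.p6). The letters were found in 20 of 47 interferon-stimulated genes with a promoter in the table (42.6%), in 9 of 10 GTPases (90.0%), in 2 of 19 immediate early genes (10.5%) and in 1131 of 32851 promoters in all (3.44%). No match was found in Ifi44, Irf7 or Ifi47, which says only that these letters are not in this window, and a match is a description of the letters and not a bound site. A window of 30 bases is shown for 1 member with a match from each interferon list, on the strand of the gene, with the match in capitals, here as its reverse complement; it starts 85 bases before the gene start in Ifit1 (chr19:34640794-34640823) and 39 before it in Gbp3 (chr3:142559995-142560024).
Ifit1: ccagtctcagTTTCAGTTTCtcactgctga
Gbp3: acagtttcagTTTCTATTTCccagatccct

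Among sensors upstream of interferon no gene passed. Of 15 sensors of double-stranded RNA tested of 16, 11 were above 0 with a median of 0.15 and 2 had an unadjusted p under 0.05, both higher (4.58% of all genes were). Ifih1, the MDA5 gene, had 4.38, 5.68 and 5.51 CPM in wild type and 6.04, 11.8 and 6.995 in P195A/- (0.67, edgeR adjusted p = 0.364), the second P195A/- library again the highest. Ddx58, the RIG-I gene, had 0.63, Dhx58 0.83 and Tarbp2 0.29, none passing. None of the 10 interferon ligand genes passed the filter on low counts. Receptors and signalling genes had a median of 0.12 (20 tested of 21). Of these 1 had an unadjusted p under 0.05, Irf7, which was higher (4.58% of all genes were). The OAS and RNase L genes had 0.34 (7 of 9, none, with Oasl2 at 0.45) and the ISG15 conjugation system 0.15 (5 of 7, none, with Usp18 at 0.68). These 3 medians turned to -0.04, -0.01 and -0.17 without the second P195A/- library, and that of the OAS and RNase L genes to -0.10 with a minimum of 1 CPM in 3 libraries. MHC class I genes had 0.07 (21 of 21, none, with B2m at 0.52 and its highest value, 26.0 CPM, in the third P195A/- library). Necroptosis genes had 0.01 (13 of 15). Cyld alone had an unadjusted p under 0.05 and was lower, at -0.17, against 6.0% of all genes. Zbp1 did not pass the filter on low counts, so no median here covers it. Its values were 0.0562, 0.0526 and 0.0903 CPM in wild type and 0.436, 0.244 and 0.0555 in P195A/-. Other genes of Aicardi-Goutieres syndrome had 0.14 together with Adar (8 of 9). At an unadjusted p under 0.05, 1 was higher and 2 lower, against 4.58 and 6.0% of all genes (Ifih1 at 0.67, Rnaseh2b at -0.85 and Lsm11 at -0.20).

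Genes of the arm of the response through eIF2 alpha mostly had values below wild type. Among its kinases, exchange factor subunits and phosphatase subunits 9 of 12 were below 0 with a median of -0.12 (-0.03 without the second P195A/- library). Eif2ak2, the interferon-induced kinase PKR, had 15.5, 14.1 and 11.6 against 23.4, 20.3 and 16.04 CPM (0.54, edgeR adjusted p = 0.48). Ppp1r15b had -0.26 (edgeR adjusted p = 0.265, DESeq2 adjusted p = 0.0401) and Eif2b1 -0.49. Targets of the stress factor ATF4 had a median of -0.15, 26 of 32 tested below 0 and 2 with an unadjusted p under 0.05, both lower, against 6.0% of all genes. Asns, the asparagine synthetase gene, had 93.3, 108.7 and 115.1 CPM in wild type and 83.1, 85.5 and 60.4 in P195A/- (-0.47, edgeR adjusted p = 0.295). Pck2 had -0.46, Ddit4 -0.41 and Psat1 -0.28. By library the list lay at 0.02, -0.01 and 0.01 in wild type and -0.13, -0.08 and -0.12 in P195A/-, without overlap.

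Among immediate early genes, which neurons switch on within minutes of activity, none passed by edgeR. Of 23, 20 had a log2 fold change below 0, the median was -0.26, 6 had an unadjusted p under 0.05 (all lower, against 6.0% of all genes) and 9 lay wholly below wild type, against 10.5% of all genes. Fosb had 20.1, 18.9 and 16.4 CPM in wild type and 7.34, 9.58 and 10.6 in P195A/- (-1.01, SE 0.204; edgeR adjusted p = 0.143). Fosl2 had 108.9, 123.2 and 99.2 against 76.3, 82.1 and 79.4 CPM (-0.48, SE 0.103; edgeR adjusted p = 0.169, DESeq2 adjusted p = 0.00423). Egr3 had -0.36 and Homer1 -0.20, again without overlap. The list by library stood at 0.02, 0.12 and -0.15 in wild type and -0.25, -0.36 and -0.17 in P195A/-, so the 74-day-old wild-type male lay close to the P195A/- libraries. With 1 library left out the median ran from -0.18, without the second P195A/- library, to -0.34, without that male. The genes lower at an unadjusted p under 0.05 then numbered 3 without the second wild-type library, 4 without the first P195A/- library, 11 without the male and 6 without each of the others.

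Glucocorticoid receptor targets had a median of -0.20, with 13 of 16 below 0. At an unadjusted p under 0.05, 2 were lower, Cdkn1a at -0.32 and Klf9 at -0.21, against 6.0% of all genes. Cholesterol synthesis genes had -0.03 (11 of 22 below 0), with Stard4, a sterol carrier gene, at -0.40 (edgeR adjusted p = 0.196, DESeq2 adjusted p = 0.0129).

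**Figure D3:**
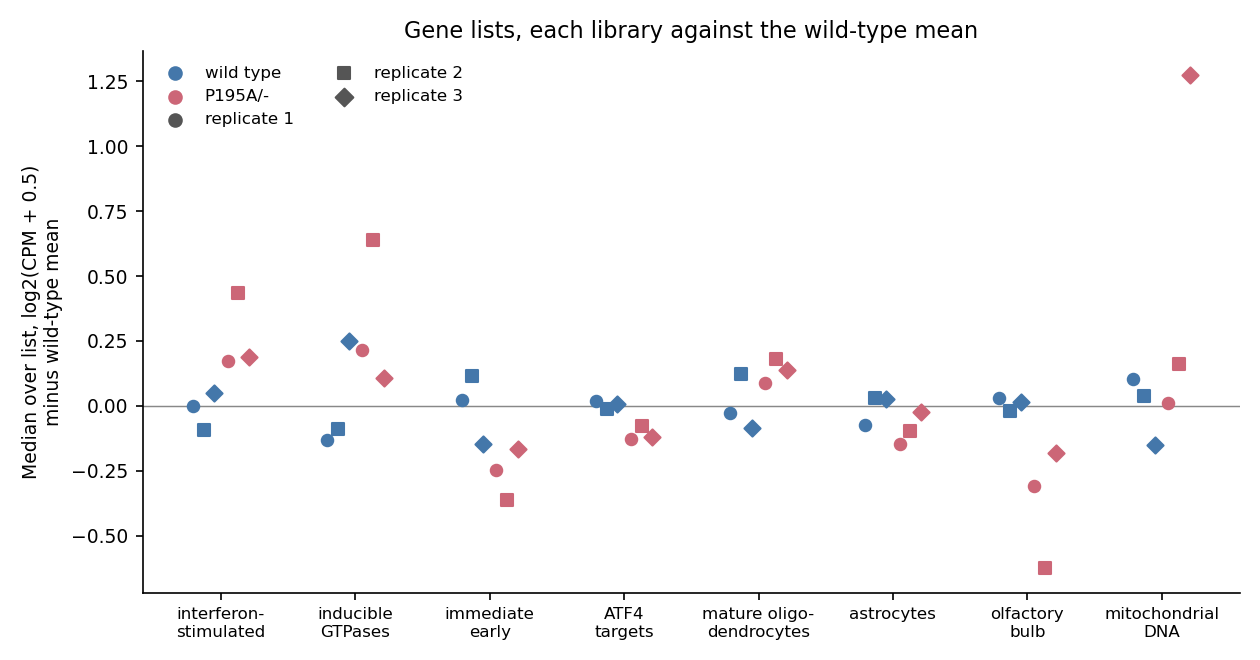
Median over each of 8 gene lists of log2(CPM + 0.5) minus the wild-type mean, 1 point per library (circle, square and diamond for replicates 1, 2 and 3). P195A/- points of the interferon-stimulated genes (0.17, 0.43 and 0.19) lie above and those of the ATF4 targets (-0.13, -0.08 and -0.12) below wild type, and the third P195A/- library stands alone for mitochondrial DNA at 1.27.

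Markers of brain cell types differed little from wild type by their medians, and none passed by edgeR. Mature oligodendrocyte genes had a median of 0.14 with 11 of 15 above 0 and 4 with an unadjusted p under 0.05, all higher (4.58% of all genes were). Among these Mbp, the myelin basic protein gene, had 1683, 1695 and 1588 CPM in wild type and 1882, 1858 and 2164 in P195A/- (0.25, edgeR adjusted p = 0.341). Cldn11 had 0.35 (DESeq2 adjusted p = 0.0453) and Opalin 0.42. With age as a covariate none of the 15 had an unadjusted p under 0.05. Early lineage genes had a median of 0.09 with 9 of 12 above 0. At an unadjusted p under 0.05, 3 were higher and 1 lower, against 4.58 and 6.0% of all genes. They were Sox10 at 0.65, Enpp6 at 0.53, Gpr17 at 0.29 (DESeq2 adjusted p = 0.0482) and Bcas1 at -0.28. Astrocyte genes had -0.09 with 8 of 12 below 0 and 4 above. At an unadjusted p under 0.05, 4 were lower (6.0% of all genes were), namely the glutamate transporters Slc1a2 (-0.22) and Slc1a3 (-0.25), Glul (-0.26) and S100b (-0.23). P195A/- lay wholly below wild type in 2 of the 12 (10.5% of all genes). With age as a covariate none of the 12 had an unadjusted p under 0.05.

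Inhibitory neuron genes had a median of -0.21, with 7 of 11 below 0. At an unadjusted p under 0.05, 1 was higher and 2 lower, against 4.58 and 6.0% of all genes. The median was 0.05 without the second wild-type library and -0.10 without the first P195A/- library. They include Gad1, a gene of GABA synthesis, at 501.3, 542.8 and 540.1 against 430.7, 397.6 and 429.1 CPM (-0.33, SE 0.078; edgeR adjusted p = 0.188, DESeq2 adjusted p = 0.0125), Vip at -0.46 and Sst at 0.62. Excitatory neuron genes had 0.02, 6 of 11 above 0, with Rorb at -0.31 (DESeq2 adjusted p = 0.0469). Microglial genes had 0.01, 8 of 15 above 0. Only Fcrls had an unadjusted p under 0.05 and was lower, as 6.0% of all genes were. It had 20.6, 20.2 and 16.8 against 10.02, 10.9 and 8.16 CPM (-0.99, edgeR adjusted p = 0.192). It also lies on chromosome 3, at -2.46 Mb from Adar. Endothelial cells and pericytes had 0.03, 9 of 15 above 0 (Rgs5 0.29, Kdr 0.43, Slc2a1 -0.31). Meningeal fibroblasts had 0.001, 6 of 12 above 0 (Slc6a13 -0.94, Col3a1 1.30), and choroid plexus and ependyma -0.02, 5 of 10 above 0 (Tmem212 -0.78). Proliferating and immature neural cells had 0.0, 7 of 15 above 0 (Ccnb2 1.10, Top2a 0.73, Eomes -0.46). Hypothalamic neuropeptides had 0.12, 9 of 12 above 0 (Pmch 0.36, Pomc -2.44 with an SE of 1.92). Medians of the MHC class I, necroptosis, excitatory neuron, microglial, meningeal, choroid plexus and hypothalamic lists changed sign when 1 library was left out. Blood cell genes had -0.34 (0.04 without the first wild-type library) and varied within both groups, Hbb-bs at 841.4, 225.0 and 727.5 against 169.4, 642.3 and 157.4 CPM.

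Olfactory bulb genes had the lowest median, -0.51 over 13 tested of 14, with 10 below 0, 1 higher and 4 lower at an unadjusted p under 0.05, where 4.58 and 6.0% of all genes were. Omp, the marker of olfactory receptor neurons, had 1.46, 1.74 and 1.90 CPM in wild type and 0.622, 0.305 and 0.4996 in P195A/- (-1.82, SE 0.437; edgeR adjusted p = 0.192). Cdhr1, a cadherin of mitral and tufted cells, had 15.6, 12.3 and 14.1 against 10.1, 3.42 and 4.22 CPM (-1.25, edgeR adjusted p = 0.196), and Shisa3 had -1.18 and Doc2g -0.82. Their summed level was 131, 116 and 126 CPM in wild type and 102, 71.7 and 115 in P195A/-. Against P195A/P195A the median was -1.58 and 8 were lower at an unadjusted p under 0.05 (3.63% of all genes). No source used here says how much of the bulb was taken with each brain, and its part in other results was not tested.

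Genes of mitochondrial DNA had a median of 0.60 that rests on 1 library. Their summed level was 6692, 6330 and 5619 CPM in wild type and 6284, 7105 and 14830 in P195A/-. Without the third P195A/- library the median was 0.11. Of 13 genes 12 were above 0. At an unadjusted p under 0.05, 1 was higher and 1 lower, against 4.58 and 6.0% of all genes. The lower was mt-Nd6, at 187.3, 217.4 and 232.5 against 175.4, 179.5 and 171.5 CPM, without overlap (-0.28, edgeR adjusted p = 0.319). The 26 genes known for recoding by RNA editing had a median of 0.03, with Grik1, a kainate receptor subunit gene, at 0.49, Igfbp7 at 0.59, Cdk13 at 0.22 and Gabra3 at -0.25.

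Editing was read at sites of a list given to the caller. Of 52239 listed sites with data in this comparison, 52039 had a reference A on the transcript strand, and 14177 sites in 1789 genes had 10 or more reads of A or G in every library of the 6 and a pooled level of 1 to 99%. The median depth was 20 to 25 reads per site and library, so a level at a single site moves by several points from counting alone. Before each A of 3051 tested exonic sites the base was T in 35.7%, A in 31.6%, C in 25.9% and G in 6.85%, and the base after it was G in 46.8%, which is the known preference of ADAR enzymes.

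Mean editing levels of the groups overlapped. Over the 14177 sites the level was 15.4, 14.9 and 16.3% in wild type and 16.1, 15.7 and 16.8% in P195A/-, or 15.5 ± 0.683% and 16.2 ± 0.583% (SD, n = 3 each). The difference of 0.684 percentage points had an exact two-sided permutation p of 0.3, where 20 splits of 3 against 3 allow no p below 0.1 (0.933 after adjustment over 7 tests). With at least 20 reads per library the difference was 0.149 points. Against P195A/P195A, over 11818 sites tested there, P195A/- had 16.1 ± 0.512% (SD, n = 3) against 16.7 ± 0.218% (n = 4), a difference of -0.633 points (exact two-sided permutation p = 0.171, smallest possible 0.0571).

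By class of site the intronic sites showed the widest difference among classes of over 100 sites. Classes were set by annotated genes on the strand of the site. The 10308 intronic sites had 15.1, 14.7 and 16.1% against 16.2, 15.5 and 16.9%, a difference of 0.939 points (exact permutation p = 0.2). The 1978 sites in 3′ UTRs had 14.2, 13.7 and 14.5% against 13.9, 14.3 and 14.3% (0.0111 points, exact permutation p = 0.8). The 139 coding sites had 19.6, 19.6 and 19.8% against 19.2, 19.0 and 20.5% (-0.106 points, exact permutation p = 1). Noncoding exons (928 sites), sites outside genes (802) and 5′ UTRs (22) differed by 0.259, -0.262 and -0.823 points. In each class the groups overlapped, and adjusted over the 7 tests no p was under 0.933.

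**Figure D4:**
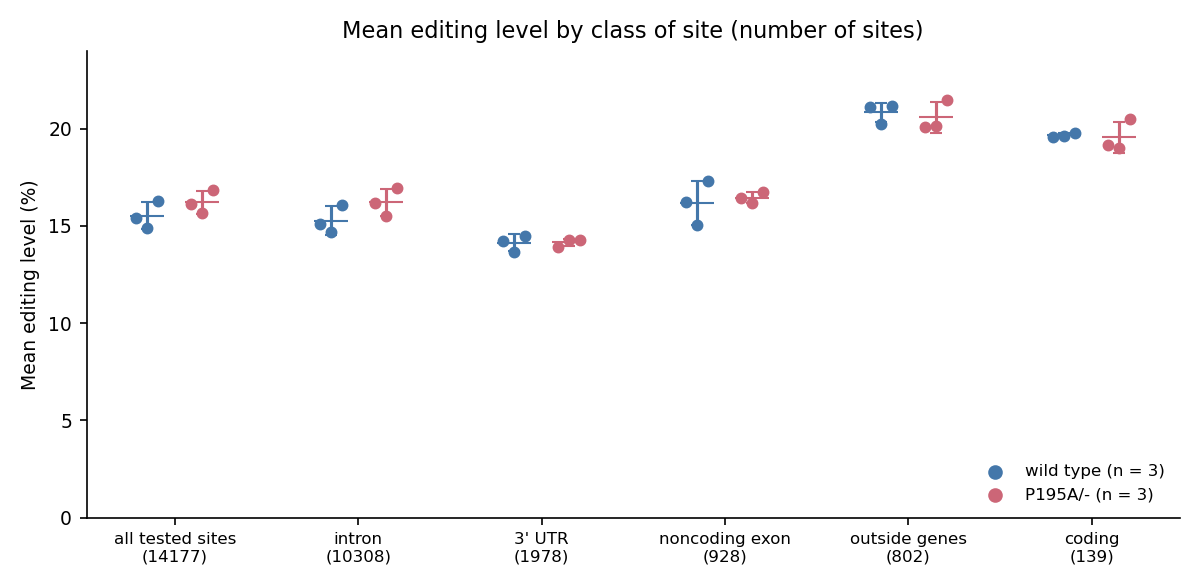
Mean editing level in percent by class of site, 1 point per library, with horizontal bars at the group mean and error bars of 1 SD (n = 3 each). Means range from 14.1 to 20.8% between classes and differ by at most 0.939 points between wild type and P195A/- in the classes plotted.

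No single site passed by edgeR (0.0% of 14177), with 347 sites higher (2.45%) and 222 lower (1.57%) at an unadjusted p under 0.05, together 4.01%. Limma on arcsine square root levels passed 0 as well, with 745 at an unadjusted p under 0.05. P195A/- lay wholly above wild type at 773 sites (5.45%) and wholly below at 523 (3.69%). Of all tested sites 7571 had a log2 odds ratio above 0 and 6606 below. The smallest p belonged to a minus-strand site (chromosome 17, 39844592) in no annotated gene of its strand (edgeR adjusted p = 0.0756). It lies between sites of the noncoding RNA Gm26917 at 39843752 and 39845506. Its levels were 23.1, 9.36 and 11.4% against 21.4, 29.9 and 27.96%, so that a wild-type library lay within the P195A/- range. Some sites were seen in 1 group only, at shallow depth. An intronic site of Hectd4 (chromosome 5, 121366105) had 23.5, 26.3 and 25% in wild type and 0% in all 3 P195A/- libraries, with 12 to 19 reads each. An intronic site of Lrrtm4 (chromosome 6, 80151791) had 0% in wild type and 36.0, 22.2 and 18.8% in P195A/-, with 13 to 25 reads. Neither passed (edgeR adjusted p = 1).

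Summed over the sites of a gene, none of 1011 genes with at least 3 tested sites passed by edgeR (0.0%), with 46 higher (4.55%) and 15 lower (1.48%) at an unadjusted p under 0.05 and limma on arcsine square root levels also passing 0. Levels lay wholly above wild type in 81 genes (8.01%) and wholly below in 37 (3.66%), and 606 of 1011 had a log2 odds ratio above 0. All 10 genes with the smallest p were higher in P195A/- (smallest edgeR adjusted p = 0.738). Prickle2, a planar polarity gene, had 4.59, 10.9 and 9.79% over 12 sites against 17.9, 14.7 and 21.0%. Nav2, a neuron navigator gene, had 16.1, 20.0 and 21.2% over 13 sites against 27.6, 30.5 and 29.8%. Pcdh9 was the deepest of the 10, with 11.1, 11.1 and 11.2% over 133 sites against 12.7, 12.98 and 13.98% and 2922 to 6044 reads per library (edgeR adjusted p = 0.738). Its expression was also among the 10 next highest, at 364.5, 322.4 and 330.1 against 423.1, 412.2 and 431.2 CPM. Pum2, Hivep3, Sec24b, 1810026B05Rik, Tom1l2, Ddx19b and Adcy9 complete the 10.

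Recoding sites, where editing changes a codon, are shown by 29 bases of the GENCODE M21 transcript (GRCm38) centred on the edited A, which stands in capitals. The first makes the Q/R change in the channel pore of the AMPA receptor subunit of Gria2, and the next 3 make the R/G change at the corresponding place in 3 AMPA subunits.
Gria2 Q/R: gggtgcctttatgcAgcaaggatgcgata
Gria2 R/G: aaggatcctcattaAgaaatgcggttaac
Gria3 R/G: aaggctcagcattaAgaacgcctgtaaac
Gria4 R/G: agggttcctcattaAgaaatgctgttaac
Cyfip2: tggccagatacattAagaccagtgctcac
Gabra3: atggactggttcatAgccgtctgttatgc
Kcna1: ctggtgtgctgacaAttgccctgcccgta
Copa: tccgcgtttgggatAtttctggtctaagg

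The Gria2 Q/R site (chromosome 3, 80706912), an ADAR2 substrate needed for viability, was edited in 100, 98.7 and 99.6% of reads in wild type and 100, 99.2 and 99.7% in P195A/- (209 to 353 reads), and so lay outside the tested range of levels. The Gria2 R/G site (80692286) had 66.4, 70.7 and 73.1% against 69.1, 69.0 and 67.8%, with 244 to 308 reads. Its counterpart in Gria3 (chromosome X, 41654252) had 92.4 ± 1.69% and 92.5 ± 0.956% (SD, n = 3 each), and that in Gria4 (chromosome 9, 4456006) 63.0 ± 5.44% and 66.8 ± 2.71%. The log2 odds ratio of Gria2 R/G was -0.10 with a 95% interval of -0.65 to 0.45, and that of Gria3 0.01 (-0.63 to 0.65).

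At other deep recoding sites the groups overlapped as well. Cyfip2, a regulator of actin at synapses (chromosome 11, 46272643, 315 to 439 reads), had 79.6, 84.3 and 79.2% against 80.6, 78.1 and 79.5%. Kcna1, a potassium channel gene whose edited form recovers faster from inactivation (chromosome 6, 126642158, 259 to 548 reads), had 40.3, 34.7 and 45.8% against 40.9, 46.2 and 37.1%. Gabra3, a GABA receptor subunit gene (chromosome X, 72445292, 124 to 231 reads), had 97.0, 93.0 and 96.5% against 94.2, 89.5 and 93.6% (log2 odds ratio -0.79, interval -1.67 to 0.08). Copa, a coatomer gene (chromosome 1, 172092348, at most 282 reads), had 3.03, 4.26 and 6.07% against 6.63, 9.74 and 5.98% (0.76, -0.01 to 1.52). Azin1, the antizyme inhibitor gene, was barely edited, at 1.23 ± 1.11% and 1.52 ± 0.701% (SD, n = 3 each).

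Of the 26 recoding genes 23 had a tested coding site, 59 sites in all. At the site with the most reads in each gene, 10 were higher and 13 lower in P195A/-, with a median difference of -0.352 points, and 1 had an unadjusted p under 0.05, in Grik2 (chromosome 10, 49244347), at 0, 1.80 and 0.833% against 2.94, 6.19 and 0.794%. The site with the most reads is often a neighbour of the known one, so the site with the highest wild-type level was also taken, a choice made after values were seen and one that favours wild type. There again 10 were higher and 13 lower, the median was -1.15 points (range -13.9 to 10.6), none had an unadjusted p under 0.05, and in 1 the groups did not overlap. That was Cadps (chromosome 14, 12822474), with 31.8, 40 and 31.7% against 26.5, 17.4 and 23.5% at 17 to 41 reads. Among all 139 coding sites 3 were higher and 3 lower at an unadjusted p under 0.05, against 2.45 and 1.57% of all tested sites.

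**Figure D5:**
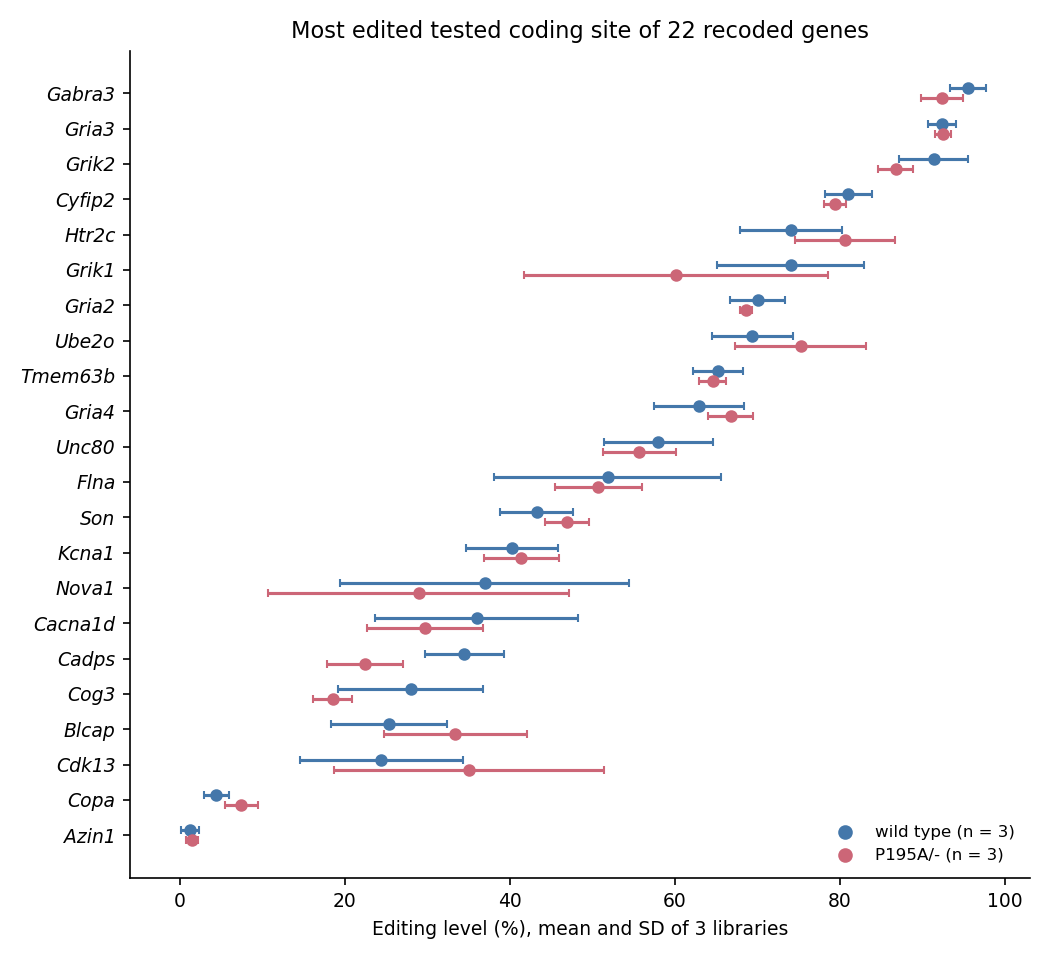
Editing level in percent at the coding site with the highest wild-type level in each of 22 recoded genes, mean and SD of 3 libraries for wild type and P195A/-. The levels run from about 1.23% (Azin1) to 95.5% (Gabra3) in wild type, and the widest SDs belong to shallow sites such as Grik1 and Nova1.

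Where P195A/- was set against P195A/P195A, 10 of 11818 sites were lower in P195A/- (0.0846%) and none higher (0.0%) by edgeR at an adjusted p under 0.05. A site in the 3′ UTR of Gnl3l (chromosome X, 150984618) had 51.3, 51.5 and 50.4% in P195A/- and 73.4, 65.8, 74.4 and 70.7% in P195A/P195A, with 52.1, 55.3 and 58.4% in wild type (log2 odds ratio -1.24, edgeR adjusted p = 1.75e-05). The P195A/- values lay below both other groups, and those of wild type were the nearer. A site in the 3′ UTR of Bri3bp (chromosome 5, 125456605) had 64.8, 68.0 and 54.9% against 87.6, 81.4, 88.4 and 85.4% (-1.88, edgeR adjusted p = 1.88e-04), with 74.6, 74.6 and 85.2% in wild type, the last within the P195A/P195A range. A coding site of Ccni (chromosome 5, 93189584), a gene with low values in P195A/- above, had 0.713, 1.95 and 2.05% against 4.74, 3.37, 4.02 and 4.24%, and 2.55, 2.38 and 2.49% in wild type (edgeR adjusted p = 7.63e-04). Of the other 7 sites, 2 lay in Cds2, 2 in the noncoding RNA Gm26917 and 1 each in Selenop, Slc39a3 and Ap2a2.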

How the data were processed

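RNA of whole brain was sequenced from 13 mice, of which 3 wild-type and 3 P195A/- mice are compared. The authors deposited estimated counts per gene (54307 entries, 99.48% of nonzero values not whole), made with fastp 0.19.5 and Salmon per the submitters' processing notes. Counts were rounded, and 51482 identifiers matched GENCODE M21 (0.678% of counts did not). Genes were tested with edgeR 4.0.16 (filterByExpr, TMM, robust quasi-likelihood) over all 13 libraries in 1 fit, with Benjamini-Hochberg adjustment. The overall biological coefficient of variation was 19.1%.

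Editing came from base counts of the reads at listed sites, which the authors deposited for each pair of genotypes, called with JACUSA2 2.0.0-RC5 on mm10 (GRCm38). Per the file headers the caller read strand, left out duplicates and needed a coverage of 3 with a cap of 3000. The score the authors deposited with each site was not used for any call. For the aligner no source used here has a name. Edited and unedited reads were tested with edgeR, with 1 pair of columns per library. C or T reads were 0.0182% at tested sites. Tables of single libraries were not used, since they list a site only where a read differed from the reference.

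The alternatives tried were DESeq2 1.42.0, limma 3.58.1, other filters, scalings, covariates and libraries. Members and the 31 gene lists were chosen with earlier results of these data known. The text names ADAR genes, passing genes, neighbours from Adar to Tpm3, the 10 next genes in each direction, up to 4 members of a list by smallest p, and in editing the site with the most reads per recoding gene and the 10 genes with the smallest p. The genes paired with a copy, S100a5, Rps27, S100a2, single editing sites outside that rule and the sites with the highest wild-type level were named after their values were seen. Values of 2 list members are not reported here singly. Exact permutation tests used scipy 1.17.1, and Rps3a2, Rps3a3 and Hist1h2al, but not Gm3608, were aligned with BLAST 2.17.0. Only the edgeR tests of expression and of editing per site, P195A/- against wild type, were run on simulated data. The simulated editing reads held no spread between animals.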

Additional observations from a re-analysis of the deposited data

Results flagged for a closer look

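Beyond the comparison with wild type, 8 genes differed between P195A/- and P195A/P195A in the same fit, tested as a contrast of the groups (edgeR adjusted p under 0.05). Fitted log2 values of genes near 0 depend on the prior count and are no bound. Rps3a3 had a log2 difference of 7.36 (edgeR adjusted p = 3.49e-08), Rps3a2 11.66 (7.79e-06), Hist1h2al 8.81 (0.00168) and Gm3608 6.34 (5.1e-05), all copies higher in P195A/-. Adar was lower in P195A/- by a log2 value of -0.68 (edgeR adjusted p = 7.73e-04), and Capza1, taken as the parent of Gm3608, by -0.58 (0.0204). Capza1 had 49.2, 53.4 and 50.5 CPM in P195A/- and 79.9, 71.9, 72.2 and 80.8 in P195A/P195A. Group means were thus 51.0 and 76.2 CPM for Capza1, and 26.7 and 0.312 CPM for Gm3608. The 2 differences may not be separate, since reads can be shared between a parent and its copy, which was not tested. The olfactory bulb marker Cdhr1 (-1.92, edgeR adjusted p = 0.0253) and S100a5, a calcium-binding protein gene (-7.12, 0.0266), were also lower. S100a5 was at 0 CPM in all 3 P195A/- libraries and had 0.337, 0.263 and 0.407 CPM in wild type.

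In editing, 10 sites were lower in P195A/- than in P195A/P195A, by the same kind of contrast. The differences between P195A/P195A and wild type were not tested here.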

How the results depend on the processing

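Against 6 genes higher and 1 lower, DESeq2 gave 32 and 168, no filter on low counts 10 and 6, the 6 libraries alone 12 and 4, limma-voom 6 and 2, and age as a covariate 1 and 0. Without replicate 3 of wild type and of P195A/- together, an alternative chosen after seeing the data, 4 were higher and 0 lower. Leaving out 1 library at a time gave 2 to 5 higher and 0 to 1 lower. RLE scaling, a minimum of 1 CPM in 3 libraries and sex as a covariate also gave 6 and 1, but with sex the lower gene was Tmem267, and Serpini1 had an edgeR adjusted p of 0.0554. Same-numbered mice of the groups correlated in their deviations by only 0.045, 0.042 and 0.035, each best with its own number, a hint from the data and not the design. Number 3 was the male in both groups, so the numbers also carry sex, whose part in these correlations was not tested. A fit of the 6 libraries with the replicate number as a block gave 16 higher and 2 lower. At a block by number the mean editing difference had an exact sign-flip p of 0.25, the smallest that 3 pairs allow.

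Of 1613 values of 105 genes under these alternatives, 1529 kept both direction and side of the threshold, 37 were no longer past it, 39 came past it and 8 turned sign, in Adarb1, Chrnb2 and Hist2h2aa2, all with values near 0. Adarb1 had 0.000 by limma-voom and -0.046 to 0.037 with 1 library left out. Chrnb2 had -0.026 to 0.077 with 1 library left out and -0.034 without both libraries numbered 3. Hist2h2aa2 had -0.287 to 0.008 with 1 library left out and 0.078 with age as a covariate. The cause was not tested.

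In editing, 1 site was higher with at least 20 reads per library, 1 with pooled levels of 5 to 95%, and 0 to 1 with a library left out. With at least 5 reads 1 gene was higher. For single recoding sites only libraries were left out, since filters do not alter a site's level, and the other settings were not run on them. The mean difference lay between 0.149 and 1.05 points over all alternatives. Depth of 20 to 25 reads at a median site limits single sites, and 3 animals a group with confounded ages limit every comparison.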
